A study of Homo sapiens with 68 samples.

Results

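10 genes of the BMP and activin pathway were followed in A673 cells under 3 cytotoxic compounds: the secreted antagonists CER1, GREM1 and FST, the ligand genes BMP2, BMP4 and INHBA, and the target genes ID1, ID3, SMAD6 and SMAD7. They are 10 of 11882 genes that the array reads with a probe set of a single symbol, and each was read from its brightest probe set. The set was chosen by name, and CER1 and GREM1 were selected on their measured response to doxorubicin. The doxorubicin values of those 2 genes are therefore given as a description with no test, and counts under doxorubicin are over the other 8 genes. Counts under ARA-C and puromycin include both. Their tests under those compounds, and between times of vehicle, use the vehicle arrays against which the doxorubicin response was measured. Those tests are therefore not independent of the choice of these 2 genes.

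BMPs and activins are secreted dimers that bring type I and type II receptor kinases together on the cell surface, after which receptor-regulated SMAD proteins are phosphorylated, join SMAD4 and enter the nucleus. CER1 and GREM1 bind BMP ligands outside the cell, FST does so with high affinity for activins, and ID1, ID3, SMAD6 and SMAD7 are textbook direct targets, the SMAD6 and SMAD7 proteins acting as feedback inhibitors. In mesenchymal and neural crest lineages, to which Ewing sarcoma is often compared, the pathway is known for its part in bone, cartilage and neural fate.

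A673 is an established Ewing sarcoma line with an EWS/FLI fusion, and all results come from this 1 line grown in culture. Cells received DMSO vehicle (6 arrays at 24 h, 5 at day 3, 6 at day 5), ARA-C (a cytosine nucleoside analogue) at 0.17 uM or 0.34 uM, doxorubicin (an anthracycline) at 59.88 nM or 119.76 nM, or puromycin (an inhibitor of translation) at 0.09 uM or 0.18 uM, the lower dose being labelled EC50 and the higher 2xEC50. Each treated group held 3 arrays per time, except doxorubicin 2xEC50 at day 5 (n = 2) and puromycin 2xEC50 at day 5 (n = 1), whose lone array was assumed to vary like the other groups. Replicate 3 of puromycin EC50 at day 5 was left out, since it carried blood transcripts (HBB 30546, PTPRC 3842), which leaves n = 2 there and 67 arrays in all.

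The 6 Ewing sarcoma markers read on the array had signals of at least 570 on every one of the 67 arrays, and each of 8 blood markers was at most 190 on any of them. Values are MAS5 signals. A change is the difference in mean log2 signal from the vehicle arrays of the same time, with signals under 10 set to 10, and "days 3-5" is the mean of the day 3 and day 5 changes. A gene passed where limma's p, adjusted by Benjamini-Hochberg over 22215 probe sets, was under 0.05, and only then is it said to have risen or fallen. By group, 4.84% to 26.9% of all probe sets had every treated array above every vehicle array of its time, and 4.92% to 42.1% below. The share above was 14.1% at ARA-C EC50 day 3 and 14.2% at doxorubicin EC50 day 3. At day 5 the share below was 29.0% with ARA-C EC50, 25.15% and 35.6% at the doxorubicin doses and 19.2% with puromycin EC50. The compounds share their vehicle arrays, and in bulk RNA fewer cells of a type and less RNA per cell cannot be told apart.

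Some arrays stood apart. The 6 vehicle arrays of day 5 divided by plate rows: with rows G-H against rows A-F, 22.3% of all probe sets differed, among them ID1 (by 1.48 on the log2 scale), BMP2 (1.01), ID3 (0.79) and SMAD7 (0.60), while CER1 differed by 1.16 without passing (limma adjusted p = 0.0885). All treated arrays lay in rows A-F except those of ARA-C 2xEC50 and the puromycin 2xEC50 array of day 5, so values against vehicle of the same rows are given beside the results. On 3 arrays under 10% of signals lay below 10 (ARA-C EC50 day 3 replicate 3, ARA-C 2xEC50 24 h replicate 2 and puromycin 2xEC50 day 5), and on 4 the log2 3′ to 5′ ratio of ACTB, a measure of RNA integrity, was above 4 (ARA-C EC50 day 5 replicate 2, both doxorubicin 2xEC50 arrays of day 5 and puromycin 2xEC50 day 5). Its mean over days 3-5 was 0.95 in vehicle, 2.51 and 1.63 under the lower and higher dose of ARA-C, 1.81 and 2.36 under doxorubicin and 1.61 and 1.77 under puromycin. Some results are given without the arrays above 4. The part of this ratio in the results was not otherwise tested.

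Sequences upstream of the 4 target genes and the 2 antagonists with the widest changes are shown because SMAD proteins bind short motifs there. They are the 250 bases before the RefSeq start in GRCh38.p14, written 5′ to 3′ along the gene's strand, with capitals for GTCT or its reverse complement AGAC, for the palindrome GTCTAGAC, which joins them, and for GGCGCC. A window at the gene's start was found for 7 of the 10 genes.
ID1, chr20:31605039-31605288 (plus strand): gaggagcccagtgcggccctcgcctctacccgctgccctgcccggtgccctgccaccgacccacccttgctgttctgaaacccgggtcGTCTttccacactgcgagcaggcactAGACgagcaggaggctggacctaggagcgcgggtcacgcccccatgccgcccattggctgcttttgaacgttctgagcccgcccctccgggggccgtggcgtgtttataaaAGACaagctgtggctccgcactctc
ID3, chr1:23559502-23559751 (minus strand): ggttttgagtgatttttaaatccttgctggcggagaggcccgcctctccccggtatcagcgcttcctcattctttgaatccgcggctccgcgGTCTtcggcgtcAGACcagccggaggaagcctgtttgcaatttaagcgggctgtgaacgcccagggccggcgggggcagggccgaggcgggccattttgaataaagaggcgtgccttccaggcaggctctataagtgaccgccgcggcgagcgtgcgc
SMAD6, chr15:66701986-66702235 (plus strand): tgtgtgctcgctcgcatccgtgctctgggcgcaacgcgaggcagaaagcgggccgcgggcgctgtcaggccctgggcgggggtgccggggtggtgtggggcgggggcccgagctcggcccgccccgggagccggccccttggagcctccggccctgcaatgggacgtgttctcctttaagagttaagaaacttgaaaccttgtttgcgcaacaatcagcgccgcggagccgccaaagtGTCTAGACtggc
SMAD7, chr18:48950966-48951215 (minus strand): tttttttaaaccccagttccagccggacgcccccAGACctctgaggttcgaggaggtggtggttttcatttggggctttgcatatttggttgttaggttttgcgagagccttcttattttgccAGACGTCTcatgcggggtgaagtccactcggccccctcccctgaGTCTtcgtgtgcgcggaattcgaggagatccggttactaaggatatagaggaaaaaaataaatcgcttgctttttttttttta
CER1, chr9:14722734-14722983 (minus strand): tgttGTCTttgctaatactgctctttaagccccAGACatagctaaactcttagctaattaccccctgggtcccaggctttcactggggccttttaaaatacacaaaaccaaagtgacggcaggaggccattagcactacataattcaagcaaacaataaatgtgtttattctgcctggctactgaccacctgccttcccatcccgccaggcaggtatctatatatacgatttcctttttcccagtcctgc
GREM1, chr15:32717754-32718003 (plus strand): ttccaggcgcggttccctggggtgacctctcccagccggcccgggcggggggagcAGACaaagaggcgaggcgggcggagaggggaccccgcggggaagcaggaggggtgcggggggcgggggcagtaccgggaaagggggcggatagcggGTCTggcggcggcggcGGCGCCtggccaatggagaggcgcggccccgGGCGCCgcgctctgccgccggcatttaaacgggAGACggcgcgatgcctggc

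SMAD6 held the palindrome GTCTAGAC once, which 0.182% of 35116 windows of that length hold. GTCT or AGAC, present in 77.5% of windows, occurred 3 times in ID1, 2 in ID3, 2 in SMAD6 (both within the palindrome), 4 in SMAD7, 2 in CER1, 3 in GREM1 and 3 in FST. GGCGCC, present in 16.4% of windows, occurred 2 times in GREM1 and in none of the other 6. A match is a description of letters, not of a bound site.

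CER1, at chr9:14717326-14722733 on the minus strand, encodes a cysteine-knot antagonist that binds BMPs and Nodal. In vehicle it was well expressed, at 298 ± 81.2 (SD, n = 6) at 24 h, 385 ± 63.6 (n = 5) at day 3 and 275 ± 117 (n = 6) at day 5. Under doxorubicin it read 2.90, 6.92 and 8.05 at 24 h, 3.16, 2.15 and 8.90 at day 3 and 9.10, 4.16 and 3.74 at day 5 of the EC50. At 2xEC50 it read 3.12, 10.4 and 5.16 at 24 h, 8.60, 7.24 and 3.97 at day 3, and 6.21 and 11.8 at day 5. All 17 doxorubicin arrays lay below every vehicle array of their time, and since 15 of them were under the floor of 10, the floored change of -4.95 over days 3-5 at the EC50 and -4.90 at 2xEC50 is no measure of how far it went.

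Under ARA-C EC50, CER1 read 237, 119.8 and 129 at 24 h, where the change of -0.90 did not pass. It read 327, 312 and 441 at day 3 and 169.6, 19.2 and 31.4 at day 5, where it fell by 2.43 ± 0.44 (SE) on the log2 scale (limma adjusted p = 6.09e-06). The 3 arrays of day 5 overlap the vehicle range of 143 to 396 through replicate 1 only. Over days 3-5 the change was -1.27 ± 0.32 (adjusted p = 0.00083), or -0.90 against vehicle of the same rows (adjusted p = 0.0479) and -0.94 without the arrays of highest ACTB ratio (adjusted p = 0.0159). At ARA-C 2xEC50 the 9 arrays read 209 to 546 and no change passed.

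Under puromycin EC50, CER1 read 192, 316 and 249 at day 3, then 91.5 and 88.9 at day 5, both below all 6 vehicle arrays. The change over days 3-5 was -1.05 ± 0.34 (limma adjusted p = 0.0239), but it did not pass against vehicle of the same rows (-0.69, adjusted p = 0.359), under quantile normalization (-0.69) or without any one of day 3 replicate 1 (-0.96), day 5 replicate 1 (-1.06) or day 5 replicate 2 (-1.04). At puromycin 2xEC50 it read 17.0, 185 and 160.1 at 24 h, 250.2, 226 and 164 at day 3 and 12.9 at day 5. The fall of 1.85 at 24 h (adjusted p = 0.00434) rested on replicate 1, without which the change was -0.74 (adjusted p = 0.409), and that of 2.57 over days 3-5 (adjusted p = 8.4e-07) on the lone day 5 array.

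GREM1 (gremlin), at chr15:32718004-32745106, encodes an antagonist that binds BMP2 and BMP4. Its vehicle signal was low, 31.3 ± 16.8 (SD, n = 6) at 24 h and 25.3 ± 10.1 (n = 5) at day 3, and it fell further to 7.89 ± 6.49 (n = 6) at day 5 (log2 day 5 minus 24 h -1.24, limma adjusted p = 0.0019), with 4 of those 6 arrays under the floor. Under ARA-C EC50 it read 81.1, 74.0 and 33.7 at 24 h, 121, 88.0 and 141 at day 3 and 100.2, 75.6 and 60.7 at day 5. From day 3 on, every ARA-C EC50 array lay above every vehicle array of its time.

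GREM1 thus rose by 2.26 at day 3 (limma adjusted p = 2.96e-05), by 2.75 at day 5 (adjusted p = 2.54e-08) and by 2.51 ± 0.28 over days 3-5 (adjusted p = 8.56e-11), and its second probe set gave 2.96. The 24 h rise of 1.11 (adjusted p = 0.041) was lost without any one of 5 arrays, vehicle replicates 4, 5 and 6 and treated replicates 1 and 2 (0.85 to 1.13). It did not pass against vehicle of the same rows either (0.44, adjusted p = 0.558), nor under quantile normalization (0.96), with a floor of 32 (0.66) or with plate rows as a block (0.76). At ARA-C 2xEC50 the signal was highest at day 5, 208, 203 and 226, which is a rise of 4.21 ± 0.38 (adjusted p = 8.87e-13); over days 3-5 it rose by 2.77, while the day 3 rise of 1.34 (adjusted p = 0.0114) came to 0.93 without replicate 1 (adjusted p = 0.175). Since most vehicle arrays of day 5 lay under the floor, the size of these changes depends on it: with a floor of 32 they were 1.52 over days 3-5 and 1.27 at day 5 of the EC50, and 1.78 and 2.73 at 2xEC50, all passed.

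Under doxorubicin GREM1 read 90.9, 119 and 109.6 at 24 h, 197, 160.1 and 127 at day 3 and 76.5, 92.8 and 105 at day 5 of the EC50. At 2xEC50 it read 154, 100.2 and 92.6, then 279.9, 257 and 153, then 90.2 and 60.2. Each of the 17 arrays lay above all vehicle arrays of its time, with changes of 1.97 to 3.22 across the 6 groups, given here without a test. Under puromycin no GREM1 change passed at any dose or time; those over days 3-5 were 0.33 (95% interval -0.27 to 0.93) and 0.02 (-0.70 to 0.73).

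FST (follistatin), at chr5:53480629-53487134, was at the edge of measurement, with 41 of 67 arrays under 10. At 24 h the 6 vehicle arrays lay between 2.82 and 6.08. Under doxorubicin EC50 it read 34.5, 61.1 and 22.3 at day 5, all above the highest vehicle array of 14.9, and at 2xEC50 45.6, 20.5 and 41.2 at day 3 and 94.0 and 10.7 at day 5. Over days 3-5 FST rose by 0.97 ± 0.38 (limma adjusted p = 0.0341) and by 1.51 ± 0.41 (adjusted p = 0.00153) at the 2 doses. The first did not pass against vehicle of the same rows (0.88, adjusted p = 0.153) or without day 3 replicate 3 (0.73), day 5 replicate 1 (0.99) or day 5 replicate 2 (0.79), and the second came to 0.73 without day 5 replicate 1 (adjusted p = 0.191). With a floor of 32 they were 0.17, not passed, and 0.53, passed. With the mean of the gene's 2 probe sets the first was 0.60 (adjusted p = 0.148), not passed, and the second passed. FST also read 62.3, 73.5 and 85.2 on the 3 arrays with few signals under 10. The last of them is the lone puromycin 2xEC50 array of day 5, on which the FST rise of 1.35 over days 3-5 rests. That change was 1.10 against vehicle of the same rows and 0.68 with the mean of the probe sets, and neither passed.

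**Figure D1:**
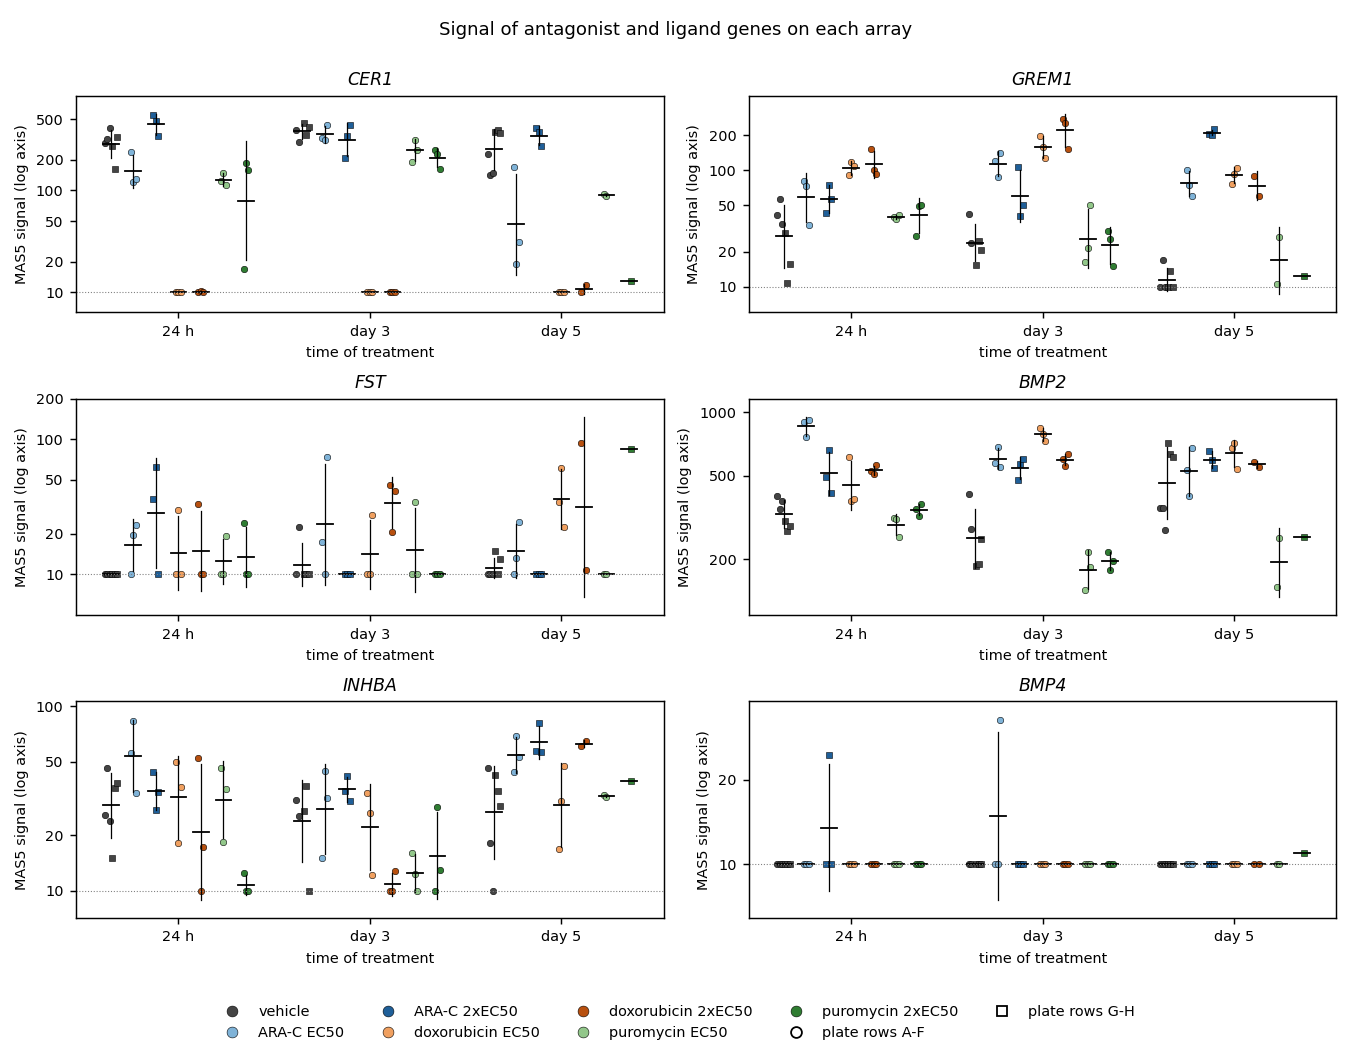
MAS5 signal (log axis) of 6 antagonist and ligand genes on each of 67 arrays by time and treatment, with circles for plate rows A-F, squares for rows G-H, horizontal bars for the mean and vertical bars for the SD of the log2 signals, and a dotted line at the floor of 10. CER1 lies at or near the floor on all 17 doxorubicin arrays, and GREM1 lies above vehicle on all 17 and on the ARA-C EC50 arrays of days 3 and 5.

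BMP2, a ligand that signals mainly through SMAD1, SMAD5 and SMAD9, lies at chr20:6767686-6780246 and was on no array under 10. Vehicle arrays read 332 ± 52.0 (SD, n = 6) at 24 h, 263 ± 90.9 (n = 5) at day 3 and 491 ± 185 (n = 6) at day 5, where 351, 352 and 277 in rows A-F stood against 716, 636 and 615 in rows G-H. Under ARA-C EC50 it read 902, 760.4 and 924 at 24 h and 577, 684 and 549 at day 3, above every vehicle array of those times. BMP2 rose by 1.39 ± 0.22 at 24 h (limma adjusted p = 1.33e-05) and by 0.72 ± 0.16 over days 3-5 (adjusted p = 0.000151).

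At ARA-C EC50 day 5, however, BMP2 read 530.4, 399.8 and 677, a change of 0.18 against all vehicle arrays that did not pass and of 0.69 that did against those of the same rows. The higher dose gave 0.74 over days 3-5 (limma adjusted p = 0.000176). Under doxorubicin it read 841, 794 and 728 at day 3 of the EC50 and rose by 1.06 ± 0.16 over days 3-5 (adjusted p = 1.86e-07; 1.10 in the same rows), and by 0.77 at 2xEC50 (adjusted p = 0.000136). Its other probe set rose with doxorubicin EC50 (1.00) and ARA-C 2xEC50 (0.85) but gave 0.18 with ARA-C EC50 and 0.40 with doxorubicin 2xEC50, neither of which passed.

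Puromycin moved BMP2 the other way. Signals were 142, 216 and 184 at day 3 and 148 and 253 at day 5 of the EC50, and BMP2 fell by 0.87 ± 0.17 over days 3-5 (limma adjusted p = 0.000145; -0.83 in the same rows). At 2xEC50 it fell by 0.61 over days 3-5 (-1.07 in the same rows), but the change was -0.08 and not passed under quantile normalization. It did not pass at day 3 of that dose (-0.36), and the fall rests on the lone day 5 array, at 255. BMP2 was 1.93 higher on the log2 scale with doxorubicin than with puromycin at the EC50s over days 3-5 (adjusted p = 6.51e-12).

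INHBA, which encodes the activin A subunit (chr7:41685114-41705406), was dim, between 1.74 and 83.3, and under 10 on 9 of 67 arrays. At day 5 vehicle read 46.0, 18.1 and 4.17 in rows A-F and 42.7, 34.5 and 28.7 in rows G-H. ARA-C 2xEC50 read 56.9, 80.8 and 56.5 and doxorubicin 2xEC50 60.8 and 64.8 at that time, all above every vehicle array. INHBA rose by 0.92 ± 0.33 over days 3-5 with ARA-C 2xEC50 (limma adjusted p = 0.0267), but not against vehicle of the same rows (0.80, adjusted p = 0.0992) or without vehicle day 3 replicate 6 (0.76), vehicle day 5 replicate 3 (0.78), treated day 3 replicate 2 (0.86) or treated day 5 replicate 2 (0.83). With a floor of 32 the rise was 0.47 and passed, and under quantile normalization it was 0.69 and did not.

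With ARA-C EC50 the INHBA change over days 3-5 was 0.63 (limma adjusted p = 0.107), while the gene's other probe set rose by 1.28 (adjusted p = 0.011). With doxorubicin 2xEC50 the day 3 arrays read 1.74, 4.17 and 12.8 (-1.14, adjusted p = 0.0753), and the rise of 1.24 at day 5 (adjusted p = 0.0426) was lost without vehicle replicate 2 (1.13) or 3 (0.96) or either treated array (1.29 and 1.19) or under quantile normalization (0.93). At 24 h of puromycin 2xEC50 INHBA read 12.4, 1.82 and 8.55, below all 6 vehicle arrays (15.0 to 46.5), a fall of 1.43 ± 0.46 (adjusted p = 0.0395) that was lost without vehicle replicates 2, 5 or 6 or any treated replicate (-1.54 to -1.30), with a floor of 32 (-0.16) or against vehicle of the same rows (-1.51).

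BMP4 lies at chr14:53949736-53956891 and was at or above 10 on 3 of 67 arrays only, at 24.6, 32.8 and 11.0. These are the 3 arrays with the fewest signals under 10, so no level of BMP4 was measured in any group; its rise of 0.57 at ARA-C EC50 day 3 (limma adjusted p = 0.0473) was 0.00 without replicate 3.

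ID1 and ID3 encode inhibitors of basic helix-loop-helix factors and lie at chr20:31605289-31606510 and chr1:23557926-23559501. Both were bright. In vehicle, ID1 read 3295 ± 523 (SD, n = 6) at 24 h, 3195 ± 795 (n = 5) at day 3, and at day 5 1194, 941 and 1128 in rows A-F but 2910.2, 3148 and 2993 in rows G-H. ID3 read 5635 ± 203 (n = 6), 5031 ± 338 (n = 5), and at day 5 3317, 3196 and 3355 against 4917, 6674 and 5616.

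Under ARA-C EC50, ID1 read 2145, 1740.4 and 1982 at day 3 and 819, 319 and 699 at day 5, in each case below all vehicle arrays of the time. ID1 fell by 1.67 ± 0.28 at day 5 (limma adjusted p = 1.5e-06) and by 1.18 ± 0.20 over days 3-5 (adjusted p = 2.92e-06). ID3 read 1985, 1189.8 and 1780.3 at day 5, again below all vehicle arrays, and fell by 1.42 ± 0.15 (adjusted p = 1.37e-11) and over days 3-5 by 0.85 ± 0.11 (adjusted p = 2.53e-09). Both day 5 sizes are against all vehicle arrays of that day, while the ARA-C EC50 arrays lay in rows A-F. Mean vehicle in those rows was 1088 for ID1 and 3289 for ID3, against 3017 and 5736 in rows G-H, so the sizes depend on the rows used. Against vehicle of the same rows the falls over days 3-5 were 0.86 for ID1 and 0.65 for ID3, and without the arrays of highest ACTB ratio the changes were -0.97 and -0.74, all passed. Under quantile normalization they were -0.73 and -0.45, both passed.

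At ARA-C 2xEC50, ID3 read 3785, 3558 and 3149.9 at day 3 and 3585, 3493 and 3379 at day 5 and fell by 0.42 over days 3-5 (limma adjusted p = 0.00162). ID1 changed by -0.21 there without passing, but fell by 0.54 against vehicle of the same rows (adjusted p = 0.0165).

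Under doxorubicin, ID3 read 2062, 1594 and 1533 at day 5 of the EC50 and 1279.8 and 1366 at 2xEC50, all below the lowest vehicle array of 3196. It fell by 0.95 ± 0.11 (limma adjusted p = 1.48e-10) and 0.94 ± 0.12 (adjusted p = 9.94e-10) over days 3-5 at the 2 doses, or by 0.74 and 0.73 in the same rows. ID1 at the EC50 read 1272, 928 and 1277 at day 5, near the vehicle arrays of rows A-F, and its change of -0.48 over days 3-5 missed the threshold (adjusted p = 0.0515; -0.17 in the same rows), passing without any one of 6 arrays, vehicle day 3 replicates 2, 4 and 5 and vehicle day 5 replicates 1, 2 and 3 (-0.50 to -0.58). At 2xEC50 ID1 read 503 and 499 at day 5, below every vehicle array, and fell by 0.86 over days 3-5 (adjusted p = 0.000822) (-0.35 and not passed under quantile normalization). At day 3 of 2xEC50 neither gene passed (0.13 for ID1, -0.16 for ID3). The falls of both genes at that dose thus rest on the 2 day 5 arrays, whose ACTB ratio was above 4.

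Under puromycin EC50 no change of ID1 or ID3 passed (-0.28 and -0.30 over days 3-5, the latter with an adjusted p of 0.0615, though it passed without vehicle day 5 replicate 1, 2 or 3, at about -0.34). At 2xEC50 the lone day 5 array read 716 for ID1 and 1446 for ID3, and the falls over days 3-5 of 0.93 (limma adjusted p = 0.00298; -0.47 and not passed under quantile normalization) and 0.95 (adjusted p = 1.01e-07) rest on it, since neither gene passed at day 3. Over the 21 group means ID1 and ID3 had a Pearson correlation of 0.94, a description over groups that share arrays' quality and plate rows.

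SMAD6 encodes the inhibitory SMAD that acts mainly on BMP receptors (chr15:66702236-66782849), and read 2611 ± 102 (SD, n = 6), 2124 ± 92.3 (n = 5) and 1794 ± 218 (n = 6) in vehicle. Under doxorubicin EC50 it read 1816, 1824 and 1792 at day 3 and 1128, 1082 and 1309.6 at day 5, below every vehicle array of both times. SMAD6 fell by 0.42 ± 0.09 over days 3-5 (limma adjusted p = 0.000106; -0.15 and not passed under quantile normalization) and by 0.42 at 2xEC50 (adjusted p = 0.000221), where the sign turned under quantile normalization (0.07).

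Under ARA-C EC50, SMAD6 read 2446, 2590.2 and 2450.1 at day 3 and 2946, 1542 and 2647 at day 5 and rose by 0.30 ± 0.09 over days 3-5 (limma adjusted p = 0.00484; 0.73 under quantile normalization), a rise lost without day 5 replicate 1 (0.21, adjusted p = 0.0549). The other 3 probe sets of the gene were dim, with mean vehicle signals by time of 7.74 to 50.3. They gave -0.24, 0.48 and -0.19 at ARA-C EC50 over days 3-5 without passing. Under doxorubicin 2xEC50 one of them rose by 1.33, with a mean of 57.0 on the 2 arrays of day 5, both of high ACTB ratio. At such levels they are no check on the bright probe set of SMAD6. Puromycin EC50 changed SMAD6 by 0.06 without passing. At 2xEC50 it fell by 0.36 over days 3-5, with the sign turned under quantile normalization (0.12). It did not pass at day 3 of that dose (-0.17), and the fall rests on the lone day 5 array, at 1217.

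SMAD7, the inhibitory SMAD that acts on both the BMP and the activin branch, lies at chr18:48919853-48950965. Vehicle read 860.0 ± 192 (SD, n = 6), 703 ± 158 (n = 5) and 868 ± 203 (n = 6). Under ARA-C EC50 it was 1167, 1071 and 1015 at day 3, above every vehicle array, and 583, 281 and 450.1 at day 5, below every vehicle array.

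SMAD7 thus rose by 0.65 at day 3 (limma adjusted p = 0.0255), though not without vehicle replicates 4 or 5 or treated replicates 1 or 3 (0.58 to 0.70), and fell by 1.01 ± 0.21 at day 5 (adjusted p = 4.83e-05; -0.71 in the same rows, but -0.17 and not passed under quantile normalization). Doxorubicin gave the same order of signs: 1216, 1265 and 1151 at day 3 of the EC50, above every vehicle array and 0.81 higher (adjusted p = 0.00408), then 747, 575 and 584 at day 5 (-0.43, not passed). At 2xEC50 it rose by 0.92 at day 3 (adjusted p = 0.000952) and at day 5, with 303 and 458, fell by 1.19 (adjusted p = 3.74e-05), so that the means over days 3-5 were small (-0.18 with ARA-C EC50, 0.19 and -0.13 with doxorubicin, none passed). Under quantile normalization these means were 0.26 (adjusted p = 0.0298), 0.51 (adjusted p = 3.04e-05) and 0.42 (adjusted p = 0.00104), so that the first and the last turned sign and all 3 passed. Against vehicle of the same rows none of the day 3 rises passed (0.37 with ARA-C EC50, 0.53 and 0.64 with doxorubicin), and under quantile normalization the day 5 fall at doxorubicin 2xEC50 did not (-0.14).

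With ARA-C 2xEC50 SMAD7 stayed high, at 1197, 1035 and 1521 at day 3 and 1659, 1345 and 1198 at day 5, and rose by 0.78 ± 0.15 over days 3-5 (limma adjusted p = 4.22e-05; 0.72 in the same rows). With puromycin, 333 and 443 at day 5 of the EC50 and 130.0 on the day 5 array of 2xEC50 were below every vehicle array, and SMAD7 fell by 0.73 ± 0.16 (adjusted p = 0.000763) and 1.41 ± 0.19 (adjusted p = 3.25e-08) over days 3-5. Neither dose passed at day 3 (-0.32 and -0.11), and the fall at 2xEC50 rests on the lone day 5 array.

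**Figure D2:**
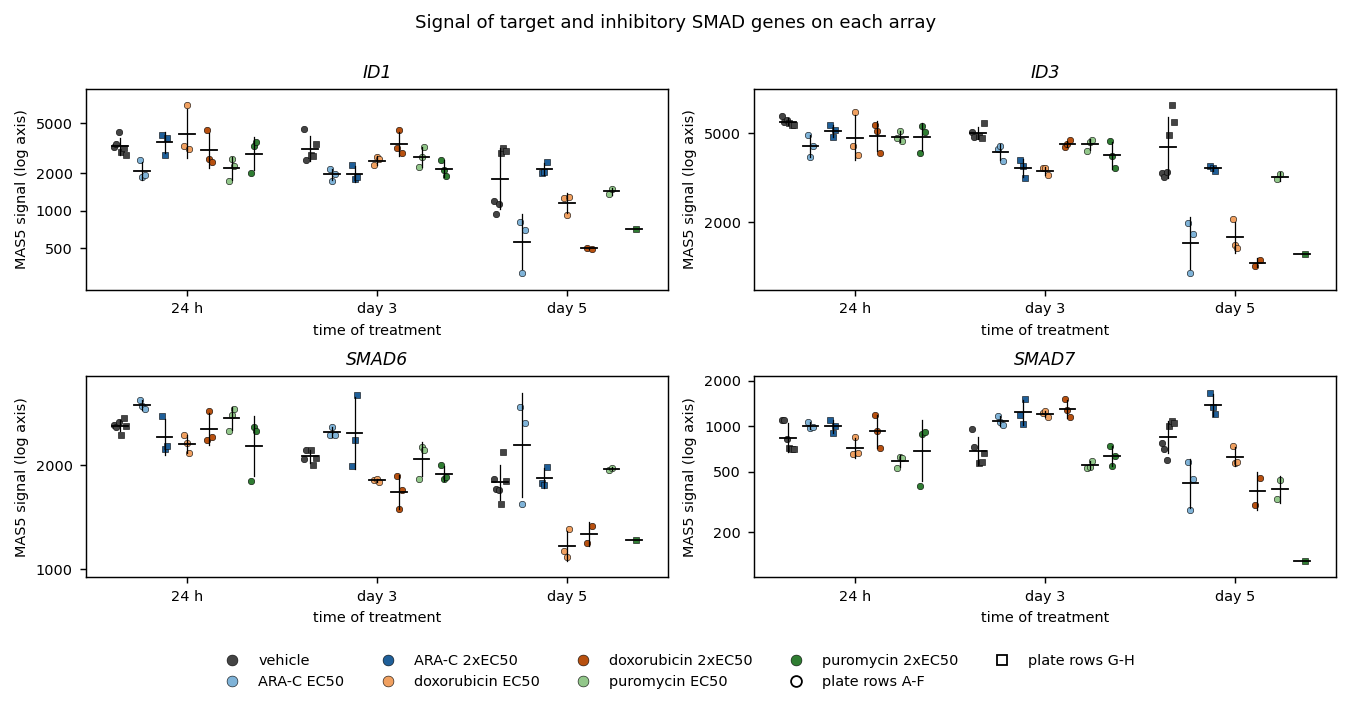
MAS5 signal (log axis) of the 4 target genes on each of 67 arrays by time and treatment, with circles for plate rows A-F, squares for rows G-H and bars for the mean and SD of the log2 signals. At day 5 the ARA-C EC50 arrays lie below all vehicle arrays for ID1, ID3 and SMAD7, as they do for 29.0% of all probe sets. The vehicle arrays of ID1 and ID3 divide by plate rows at that time.

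Counted over days 3-5, 6 of the 10 genes passed at ARA-C EC50, 3 higher (GREM1, BMP2, SMAD6) and 3 lower (CER1, ID1, ID3), where 49.2% of all probe sets passed (17.8% higher, 31.4% lower). At ARA-C 2xEC50, 5 of 10 passed, GREM1, BMP2, INHBA and SMAD7 higher and ID3 lower, against 30.4% (14.9% and 15.5%). At doxorubicin EC50, 4 of the 8 tested passed, FST and BMP2 higher and ID3 and SMAD6 lower, against 40.8% (13.6% and 27.2%), and at 2xEC50 5 of 8 with ID1 also lower, against 50.2% (16.6% and 33.6%).

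At puromycin EC50, 3 of 10 passed, CER1, BMP2 and SMAD7, all lower, against 18.5% (4.93% and 13.6%). At 2xEC50 7 of 10 passed, FST higher and CER1, BMP2, ID1, ID3, SMAD6 and SMAD7 lower, against 41.6% (11.0% and 30.6%). The counts were not tested against these shares. With vehicle of the same rows the counts were 6, 5, 3, 5, 2 and 6 in the same order of groups, against 40.4%, 32.5%, 34.3%, 44.3%, 9.31% and 42.4% of all probe sets.

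The median change of the genes over days 3-5 was 0.29 at ARA-C EC50, where that of all probe sets was 0.02, -0.29 at puromycin EC50, where that of all was -0.10, and -0.48 at puromycin 2xEC50, where that of all was -0.14. The first lies between SMAD6 (0.297) and BMP4 (0.286), which was not measured in any group. At ARA-C 2xEC50 the median lay between CER1 (0.09) and SMAD6 (0.13). Over the genes tested it lay between BMP4 (0) and INHBA (0.01) at doxorubicin EC50, and between SMAD7 (-0.13) and BMP4 (0) at 2xEC50. The whole-array shift was larger at single times, with medians of all probe sets of 0.27 at day 3 and -0.28 at day 5 of ARA-C EC50, and it bears on how each of these changes reads. Quantile normalization takes it away, and the share of called probe sets that were higher moved with it over days 3-5, from 36.2% to 47.2% at ARA-C EC50, from 33.4% to 48.5% and from 33.1% to 48.9% at the doxorubicin doses, and from 26.7% to 54.2% and from 26.4% to 52.8% at the puromycin doses.

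**Figure D3:**
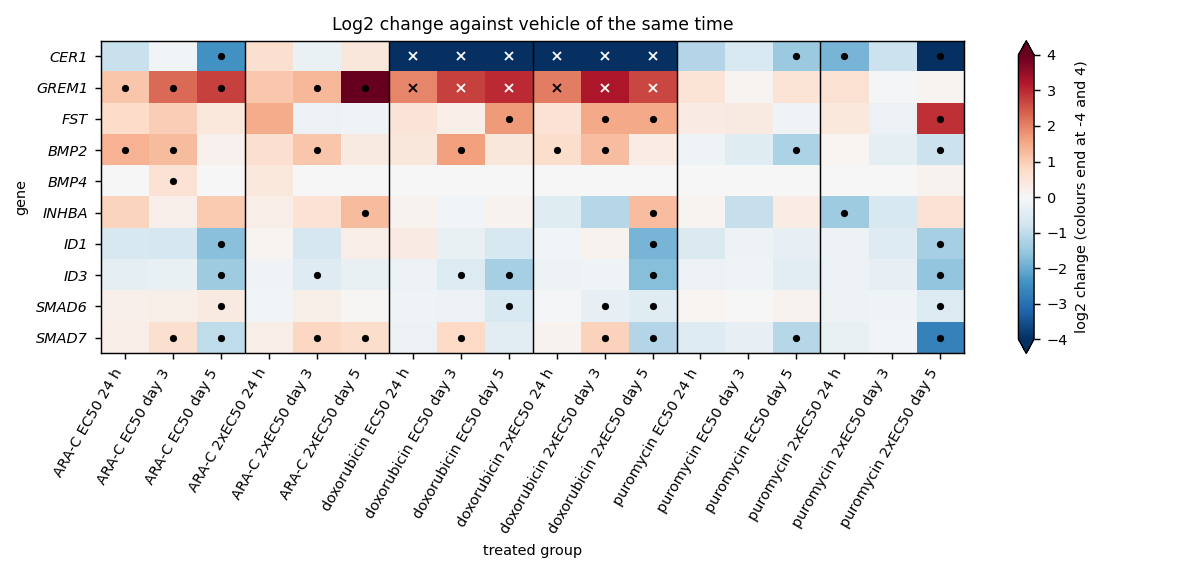
Log2 change of each gene against vehicle of the same time in the 18 treated groups, in colours that end at -4 and 4, with a dot where limma's adjusted p was under 0.05 and a cross for the doxorubicin values of CER1 and GREM1, which have no test. GREM1 is above 0 in the ARA-C and doxorubicin columns, where the ARA-C 2xEC50 value at 24 h (1.07) did not pass. Under puromycin it lies between -0.08 and 0.60, with none passed. The lowest values of ID1, ID3 and SMAD7 lie in day 5 columns.

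At single times, passing probe sets made up 22.7% of all at day 3 and 47.6% at day 5 of ARA-C EC50, 18.1% and 25.1% of 2xEC50, 20.3% and 40.6% of doxorubicin EC50, 22.8% and 53.1% of doxorubicin 2xEC50, 17.6% at day 5 of puromycin EC50, and 11.6% and 46.1% at puromycin 2xEC50. Against vehicle of the same rows the share at ARA-C EC50 day 5 was 41.1%. Between day 5 and 24 h of vehicle it was 24.0%, and there GREM1, ID1 (-0.85), ID3 (-0.38) and SMAD6 (-0.55) fell and BMP2 rose (0.49).

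Few of the genes passed at 24 h against all vehicle arrays. GREM1 and BMP2 passed as higher with ARA-C EC50, where 14.4% of all probe sets passed, though GREM1 did not against vehicle of the same rows (0.44). BMP2 rose with doxorubicin 2xEC50 by 0.69 (limma adjusted p = 0.0253; 14.5%), a call lost against vehicle of the same rows (0.50) and without vehicle replicate 5 or any treated replicate, and CER1 and INHBA fell with puromycin 2xEC50 (7.74%). None passed with ARA-C 2xEC50 (9.17%), with doxorubicin EC50 among the 8 tested (5.38%) or with puromycin EC50 (10.5%), where 4, 1 and 3 genes had an unadjusted limma p under 0.05. Vehicle of the same rows also brought calls at 24 h. ID1 (-0.78, limma adjusted p = 0.028) and ID3 (-0.40, adjusted p = 0.0343) then fell with ARA-C EC50. GREM1 (1.74, adjusted p = 0.00266) and BMP2 (0.83, adjusted p = 0.00212) rose with ARA-C 2xEC50, and SMAD7 fell with puromycin EC50 (-0.76, adjusted p = 0.0111). At 24 h the higher dose of ARA-C shifted all probe sets by a median of 0.20, and 74.3% of those called were higher, against 51.8% under quantile normalization.

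The change at day 5 differed from that at day 3 for 4 of 10 genes with ARA-C EC50 (36.1% of all probe sets), namely CER1 (-2.34), BMP2 (-1.07), ID3 (-1.14) and SMAD7 (-1.66), and for 3 of 8 with doxorubicin EC50 (13.8%), namely BMP2 (-1.18), ID3 (-0.78) and SMAD7 (-1.24). The median of all probe sets was -0.65 and -0.18 in those 2 comparisons. Against vehicle of the same rows only ID3 (-0.76, limma adjusted p = 0.00474) and SMAD7 (-1.09, adjusted p = 0.0105) with ARA-C passed among these 7, and BMP2 was -0.14 and -0.24.

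The 3 compounds were set against each other at their EC50s over days 3-5, which differ in concentration. With ARA-C against doxorubicin 2 of 8 genes passed (25.2% of all probe sets): SMAD6 was 0.72 higher (limma adjusted p = 3.18e-07) and ID1 0.69 lower (adjusted p = 0.022), the latter not without ARA-C day 5 replicate 2 (-0.48) or doxorubicin day 5 replicate 1 (-0.66) or under quantile normalization (-0.48). For BMP2 and ID3 the difference was -0.34 (95% interval -0.70 to 0.03) and 0.09 (-0.15 to 0.34). CER1 was 3.69 higher and GREM1 0.35 lower with ARA-C, with no test.

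With ARA-C against puromycin 5 of 10 passed (40.0%), GREM1 (2.18), BMP2 (1.59) and SMAD7 (0.55) higher and ID1 (-0.90) and ID3 (-0.55) lower, while CER1 differed by -0.21 (95% interval -0.98 to 0.56). The SMAD7 difference did not pass without ARA-C day 5 replicate 1 (0.43) or puromycin day 5 replicate 1 (0.44). With doxorubicin against puromycin 4 of 8 passed (29.8%), BMP2 (1.93) and SMAD7 (0.92) higher and ID3 (-0.65) and SMAD6 (-0.47) lower. Under quantile normalization the ARA-C differences of ID1 (-0.52, adjusted p = 0.0655) and ID3 (-0.17, adjusted p = 0.294) did not pass, while that of ID3 with doxorubicin did (-0.48, adjusted p = 0.000937). With the left-out puromycin array kept, the signs of ID3 (0.17 and 0.08) and of SMAD6 with doxorubicin (0.41) turned and none passed. The sign of SMAD6 with doxorubicin also turned with the mean of its probe sets (0.14), most of which were dim. The GREM1 difference came to 1.45 with a floor of 32 and passed.

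**Figure D4:**
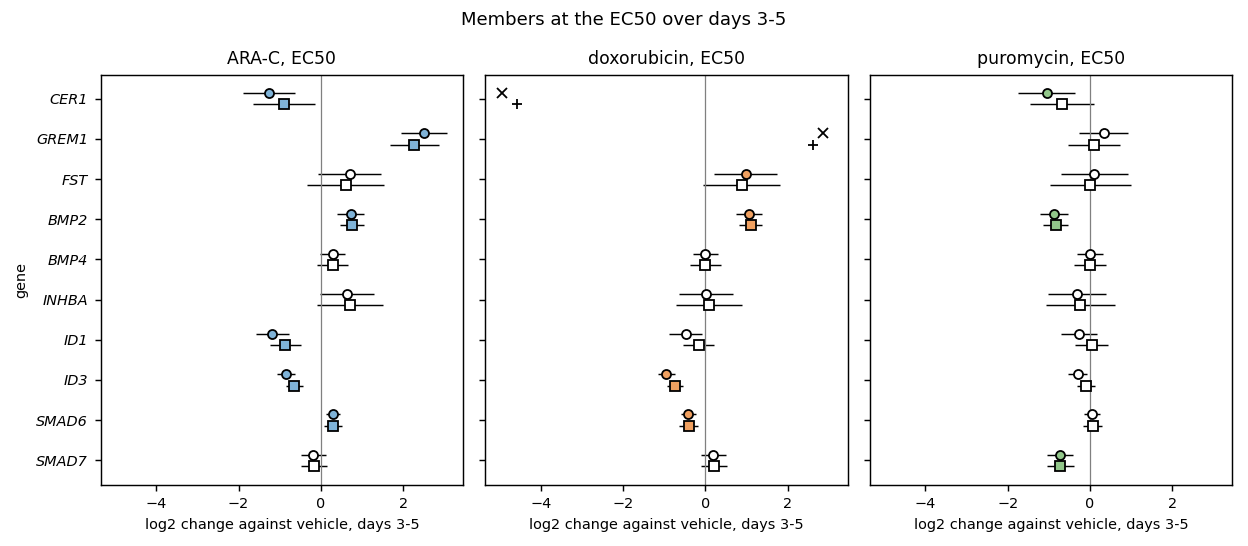
Log2 change over days 3-5 at the EC50 of each compound with 95% confidence intervals, circles against all vehicle arrays and squares against vehicle arrays of the same plate rows, filled where limma's adjusted p was under 0.05. The doxorubicin values of CER1 and GREM1 are drawn as × (all vehicle) and + (same rows) with no test; BMP2 lies above 0 with ARA-C and doxorubicin and below 0 with puromycin in both versions.

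Between the doses of a compound, 4 of 10 genes differed with ARA-C (30.1% of all probe sets), each higher at 2xEC50: CER1 by 1.36, ID1 by 0.97, ID3 by 0.44 and SMAD7 by 0.96. The ARA-C doses lay in different plate rows, and with each set against vehicle of its own rows only SMAD7 passed (0.89; 17.7% of all probe sets). With doxorubicin none of 8 differed by limma at an adjusted or unadjusted p under 0.05 (21.1% of all probe sets), and the interval for ID3 ran from -0.25 to 0.27. With puromycin (27.0%), CER1 (-1.52), ID3 (-0.65), SMAD6 (-0.41) and SMAD7 (-0.68) were lower at 2xEC50, in a mean that holds its lone day 5 array, and under quantile normalization ID3 (-0.25) and SMAD6 (-0.01) did not pass. The SMAD7 difference was -0.58 and not passed without puromycin EC50 day 5 replicate 2.

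Of 76 other genes of the pathway listed by role, 65 had a probe set. Of these, 11 were higher and 16 lower over days 3-5 at ARA-C EC50, 16 and 16 at doxorubicin EC50 and 3 and 12 at puromycin EC50. Of all probe sets 17.8% were higher and 31.4% lower with ARA-C, 13.6% and 27.2% with doxorubicin and 4.93% and 13.6% with puromycin. The counts by role below stand beside the same shares, and none was tested against them. Under quantile normalization the counts higher and lower were 16 and 13 with ARA-C, 17 and 10 with doxorubicin and 7 and 6 with puromycin, so the balance of directions in this list turns on the scaling. Among 12 SMAD proteins and their regulators 7 were lower with ARA-C, with a median of -0.48 (all probe sets 0.02), and 2 were higher and 6 lower with doxorubicin, with a median of -0.29 (all probe sets -0.07). Under quantile normalization these became 1 higher and 5 lower with ARA-C and 3 and 3 with doxorubicin. At ARA-C 2xEC50, whose arrays lay in other plate rows, no fall among these 12 genes passed over days 3-5. SKIL changed there by 0.16 and SMAD4 by -0.37, and SMURF2 rose by 0.55. The largest falls at the EC50s of these 2 compounds were of SKIL, a SMAD co-repressor (-1.50 with ARA-C, -1.12 with doxorubicin), of SMAD4, the shared partner SMAD (-1.47 with ARA-C), and of SMAD9, a BMP-regulated SMAD (-1.04 with doxorubicin). SMAD4 also fell with doxorubicin (-0.96). SKIL also fell with puromycin EC50 at 24 h (-1.73, limma adjusted p = 0.00167), while its change over days 3-5 there (-0.52) did not pass. At puromycin 2xEC50 that change was -2.88, in a mean that holds the lone day 5 array. With puromycin SMAD5, another BMP-regulated SMAD (-0.45), and SMURF1, a ubiquitin ligase of SMADs (-0.30), fell.

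Among 24 other ligand genes, 5 were higher and 3 lower with ARA-C, 4 and 5 with doxorubicin and 1 and 4 with puromycin (4 and 2, 3 and 3, and 2 and 4 under quantile normalization). GDF15, a stress-responsive cytokine (1.62), and NODAL (1.52) led with ARA-C, TGFB2 rose by 2.05 and BMP7 fell by 1.53 with doxorubicin, and INHBE (-1.31) and TGFB1 (-1.28) fell with puromycin. Of 13 receptors and co-receptors, ENG (endoglin, a co-receptor of the family) rose with ARA-C (2.06) and doxorubicin (1.41) and fell with puromycin (-1.31), and the activin receptor gene ACVR2B fell with ARA-C (-1.10) and doxorubicin (-0.84). The co-receptor gene TGFBR3 (betaglycan) fell with puromycin (-0.64).

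Of 9 other antagonists, NBL1, a relative of CER1 and GREM1, rose with ARA-C (1.80, limma adjusted p = 9.68e-15), doxorubicin (1.63) and puromycin (0.43, adjusted p = 0.0493). CRIM1, a membrane protein that binds BMPs, rose with doxorubicin (0.91), and TWSG1, a secreted BMP-binding protein, fell with ARA-C (-0.56). Of 7 other target genes, the homeobox gene MSX1 rose with ARA-C (1.17) and doxorubicin (1.37) and fell with puromycin (-0.75), and DLX5 fell with ARA-C (-0.95) and doxorubicin (-0.87). HEY1, a repressor of transcription, fell with puromycin (-0.51). Under quantile normalization TWSG1 with ARA-C (-0.23) and TGFBR3 (-0.32), SMAD5 (-0.14), SMURF1 (-0.07) and HEY1 (-0.32) with puromycin did not pass, and each of the other pathway genes given with a value kept its direction and call. MSX1 and DLX5 thus moved in opposite directions with ARA-C and with doxorubicin.

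By Pearson correlation over the 21 group means, the genes whose pattern was most like that of CER1 were KCTD7, RABL6 and CTNND2 (0.88 each), like GREM1 EDN1 (0.91), RCAN1 (0.91) and RIN2 (0.90), like ID1 EIF2B1 (0.97), PALS2 (0.96) and EED (0.95), and like INHBA PROCR (0.74), WIPI1 (0.71) and SLC2A3 (0.68). The group means share vehicle arrays' plate rows and whole-array shifts, and these values are a description.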

How the data were processed

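The intensity values are MAS5 signals on a linear scale, which the authors deposited per probe set for 68 Affymetrix arrays of the plate format; the MAS5 version is not given in the sources used here and no detection calls were used, so signals under 10 have no order and a floored change is bounded. From these, 715 of 22930 probe sets were dropped as controls, 1 array was left out for blood transcripts, and log2 was taken of signals held between 10 and 16000. Group means over 67 arrays were fitted with limma 3.58.1 in R 4.3.3, with an intensity trend and 1 shared estimate of the spread (46 residual degrees of freedom) for groups of 1 to 6 arrays. The Benjamini-Hochberg adjustment ran over all 22215 probe sets. Tables and figures were made with Python 3.11.15, pandas 2.3.3, numpy 2.4.6, scipy 1.17.1 and matplotlib 3.10.9, and the fit was tested on simulated data.

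Genes were named from probe sets with 1 symbol (19230; 125 had several and 2860 none). The genes named are the 10 members, in each role of a pathway list the 2 largest changes among those passed in each EC50 comparison of days 3-5, and for 4 members the 3 genes most alike. The members and lists were chosen with earlier results of these data known. Plate rows came from the study's own sample list. The labels number replicates as biological, nothing ties the same number across groups, and the p-values measure the spread between these arrays, whose number limits the precision. Replicate numbers did not pair the arrays: deviations from group means correlated above 0.1 in 1 of 43 same-numbered pairs (-0.0981 to 0.1115, median -0.0085). Alternatives were quantile normalization, a floor of 32, dim probe sets left out, the mean of a gene's probe sets, plate rows or replicate number as a block, vehicle of the same rows, the left-out array kept, and each array left out in turn. Vehicle of the same rows and leaving out the arrays that stood apart were added after the data were seen.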

Additional observations from a re-analysis of the deposited data

Results flagged for a closer look

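The change at day 5 differed from that at day 3 of the EC50 for CER1 with ARA-C (-2.34, limma adjusted p = 0.00291), for BMP2 with ARA-C (-1.07, adjusted p = 0.00597) and doxorubicin (-1.18, adjusted p = 0.00799), for ID3 with ARA-C (-1.14, adjusted p = 3.71e-05) and doxorubicin (-0.78, adjusted p = 0.00977), and for SMAD7 with ARA-C (-1.66, adjusted p = 1.97e-05) and doxorubicin (-1.24, adjusted p = 0.0032). The medians of all probe sets in these comparisons were -0.65 and -0.18. Under quantile normalization CER1 (limma adjusted p = 0.0171), ID3 (-0.60) and SMAD7 (-0.87) still passed with ARA-C and SMAD7 (-0.79) with doxorubicin, and BMP2 (-0.09 and -0.69) and ID3 with doxorubicin (-0.49) did not.

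Single arrays lay far from the rest of their group in 2 of 26 pairs of a gene and a group of 4 or more arrays, where chance flags about 1 in 20 off the floor: FST at 22.5 on vehicle day 3 replicate 2, the highest of 5, and INHBA at 4.98 on vehicle day 3 replicate 6, the lowest of 5. That rate does not hold for FST, whose other 4 arrays lay under the floor, so that any array above 10 was flagged. The array left out, puromycin EC50 day 5 replicate 3, held GREM1 at 85.0 (highest vehicle array of day 5 16.9), FST at 33.1 (14.9) and BMP4 at 168 (2.92).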

How the results depend on the processing

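Of 46 gene results that passed, 25 kept their direction and call in every alternative that gave a value, 35 without each single array, and 22 in both. Replicate number as a block left 130 of 138 results on their side of the threshold, with 7 lost and 1 gained, and since the numbers do not pair the arrays these losses say nothing of the effect; the count of genes passed under that block went from 2 to 1 for ARA-C EC50 and puromycin 2xEC50 at 24 h. In the first of these it was also 1 with plate rows as a block or the left-out array kept, and in the second also 1 with a floor of 32, plate rows as a block, the left-out array kept, dim probe sets left out, the mean of probe sets or vehicle of the same rows. At 24 h of ARA-C 2xEC50 0 became 1 with a floor of 32 or plate rows as a block and 2 with dim probe sets left out, vehicle of the same rows or the arrays of highest ACTB ratio left out. Doxorubicin 2xEC50 at 24 h went from 1 to 0 with the left-out array kept, the mean of probe sets or vehicle of the same rows, and puromycin EC50 at 24 h from 0 to 1 with a floor of 32 or vehicle of the same rows.

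Keeping the left-out array gave 2 for doxorubicin EC50, 6 for puromycin EC50, 0 for ARA-C against doxorubicin and 2 for doxorubicin against puromycin over days 3-5; ARA-C against doxorubicin was 1 without the arrays of highest ACTB ratio, and puromycin 2xEC50 4 under quantile normalization. Without single arrays the counts ran over days 3-5 from 5 to 8 and 4 to 5 at the ARA-C doses, 3 to 5 and 4 to 5 at doxorubicin, 2 to 4 at puromycin EC50 and 7 at 2xEC50, from 1 to 3, 4 to 7 and 4 for the pairs ARA-C and doxorubicin, ARA-C and puromycin, and doxorubicin and puromycin, and at 24 h from 1 to 2, 0 to 2, 0, 0 to 1, 0 to 1 and 0 to 2 in the order of compounds and doses above.

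Signs turned under quantile normalization for SMAD7 over days 3-5 of ARA-C EC50 (0.26) and doxorubicin 2xEC50 (0.42), BMP4 at ARA-C EC50 day 3 (-0.0026), SMAD6 with doxorubicin 2xEC50 (days 3-5 0.065, day 5 0.41) and puromycin 2xEC50 (0.12 and 0.40), and BMP2 at puromycin 2xEC50 day 5 (0.068). With the mean of a gene's probe sets they turned for SMAD6 at ARA-C EC50 day 5 (-0.33), doxorubicin 2xEC50 (days 3-5 0.16, day 3 0.20, day 5 0.12) and doxorubicin against puromycin (0.14). In that mean the dim probe sets of SMAD6 weigh as much as its bright one. With the left-out array kept they turned for SMAD6 at puromycin EC50 (days 3-5 -0.83, day 5 -1.63), BMP4 at puromycin EC50 day 5 (1.36), ID3 with ARA-C (0.17) and doxorubicin (0.077) against puromycin and between puromycin doses (0.070), and SMAD6 with doxorubicin against puromycin (0.41) and between puromycin doses (0.47). FST at doxorubicin 2xEC50 day 5 ran from -0.063 to 3.08 without single arrays. The cause was not tested. The lone puromycin 2xEC50 array of day 5 could not be left out with a value for that day, nor could the arrays of highest ACTB ratio at the 2xEC50 doses of doxorubicin and puromycin. Signals under 10, most of BMP4 and FST, limit what can be seen of these genes.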
